A study of Mus musculus with 24 samples.

Results

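Galectins are sugar-binding proteins, and the 5 genes described here are the galectins Lgals1, Lgals3, Lgals8 and Lgals9 and the galectin ligand Lgals3bp, read in a mouse myoblast line and a mouse motor-neuron-like line grown alone or together. They were taken by name and are 5 of the 15839 genes with a read in either line. The set was chosen by the measured C2C12 counts in which Lgals3 had already been seen to stand higher in co-culture, so the C2C12 co-culture values of these genes are given as a description, with no test. C2C12 is an established myoblast line that fuses into muscle fibres in culture, and NSC34 is a hybrid line of motor neurons and neuroblastoma cells. The 4 groups were C2C12 co-cultured with NSC34 for 3 days, C2C12 controls without co-culture, NSC34 co-cultured with C2C12 for 3 days, and NSC34 controls without co-culture, each with 6 libraries and all of wild-type genotype. The assay was Nanopore MinION sequencing of total RNA, and a read is assigned to 1 annotated transcript. No source used here tells by what means C2C12 was separated from NSC34 after the shared culture, or whether libraries of a group are separate cultures, and p-values thus measure only the spread between these libraries.

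Galectins share a carbohydrate-recognition domain that holds beta-galactoside sugars on the glycans of cell-surface and matrix proteins. They are made in the cytosol, leave the cell without a signal peptide, and outside it crosslink glycoproteins such as integrins and laminins. Inside the cell several of them gather on damaged lysosomes and endosomes, whose inner glycans become exposed. Galectin-1 carries 1 such domain and forms dimers, and in muscle it is known for its binding to laminin and its part in myoblast fusion. Galectin-3 joins 1 domain to a long tail rich in proline and glycine and is much used as a marker of macrophages. Galectin-8 and galectin-9 each link 2 domains in 1 chain. Lgals3bp encodes a secreted glycoprotein that is bound by galectins and has no galectin domain of its own.

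The codons of the sugar-binding site show what the 4 galectins have in common. In each sequence the capitals mark 5 codons that hold the conserved histidine, asparagine and arginine of the site, and each stretch is 57 bases of coding sequence read 5′ to 3′ from the GENCODE M21 transcripts of GRCm38.
Lgals1-201 (chr15:78929655-78929711, plus strand): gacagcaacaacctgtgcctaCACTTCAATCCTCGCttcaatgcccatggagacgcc
Lgals3-204 (chr14:47384621-47384677, plus strand): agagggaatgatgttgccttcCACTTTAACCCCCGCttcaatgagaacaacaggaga
Lgals8-202, first site (chr13:12454852-12454908, minus strand): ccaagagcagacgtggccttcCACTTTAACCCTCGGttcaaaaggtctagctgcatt
Lgals8-202, second site (chr13:12447231-12447287, minus strand): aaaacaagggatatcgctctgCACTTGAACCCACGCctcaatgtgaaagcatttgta
Lgals9-202, first site (chr11:78973105-78973161, minus strand): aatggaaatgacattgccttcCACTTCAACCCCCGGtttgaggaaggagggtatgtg
Lgals9-202, second site (chr11:78965779-78965835, minus strand): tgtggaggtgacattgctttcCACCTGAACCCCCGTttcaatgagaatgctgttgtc
A search of the coding codons found 1 such site in Lgals1-201 and in Lgals3-204 and 2 in Lgals8-202 and in Lgals9-202.

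Depth set what could be read of each gene. The 12 C2C12 libraries held 121154 to 658075 reads, and the 12 NSC34 libraries held 88 to 30314, of which the co-cultured library 2 alone held 30314 of 55007. Levels are given as CPM, the reads of a gene scaled to a library of 1000000 reads. A count of 0 allows up to 3 reads of a group's total, which is 54.5 CPM in co-cultured NSC34, 189 CPM in NSC34 controls, 1.66 CPM in co-cultured C2C12 and 2.0 CPM in C2C12 controls. Such limits, and the exact 95% intervals given below, cover counting error only. All 5 genes had reads in C2C12 and 4 in NSC34. Lgals1 and Lgals3 passed the filter on low counts in C2C12, and no galectin gene passed it in the NSC34 co-culture comparison.

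The lines kept their own marker genes. The 12 myoblast markers summed to 12209 CPM in co-cultured C2C12 and 11629 CPM in C2C12 controls. In NSC34 the same list had 21 reads over all 12 libraries, 20 of them on Chrna1, a subunit of the muscle acetylcholine receptor, and 10 of its genes were at 0. The 15 motor neuron markers summed to 1044 CPM in NSC34 and 206 CPM in C2C12. Of the cholinergic genes in that list, Chat had 1 read in NSC34 and Slc18a3 and Slc5a7 had none. Mnx1, which is not a cholinergic gene, also had none.

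Lgals1, which encodes galectin-1 (chr15:78926725-78930465, plus strand), was by far the most abundant galectin RNA in C2C12. It was rank 4 of 15439 genes by mean CPM, and took 1.17 ± 0.0716% of the reads of co-cultured C2C12 and 1.15 ± 0.0539% of those of C2C12 controls (SD, n = 6 each). Co-cultured libraries 1 to 6 held 4540, 6666, 1657, 1689, 4074 and 2949 Lgals1 reads, and control libraries 1 to 6 held 1471, 7353, 2488, 1503, 2339 and 1779. As a level this was a lowest, median and highest value of 11002, 11572 and 12933 CPM in co-culture and of 10972, 11376 and 12406 CPM in controls. The groups overlapped over most of their range. The log2 fold change of co-culture over control was 0.03 (SE 0.0615), smaller than its standard error, and it was −0.02 once the trend with transcript length was removed from each library.

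Lgals3, which encodes galectin-3 (chr14:47367751-47386160, plus strand), stood higher in every co-cultured C2C12 library than in any C2C12 control. Co-cultured libraries 1 to 6 held 132, 170, 40, 39, 166 and 121 reads, and control libraries 1 to 6 held 23, 160, 33, 17, 42 and 21. The lowest, median and highest levels were 258, 343 and 473 CPM in co-culture and 137, 165 and 243 CPM in controls. The highest control library, control 2, thus lay just under the lowest co-cultured library, co-culture 4. The means were 358 ± 90.3 CPM in co-culture and 174 ± 41.6 CPM in controls (SD, n = 6 each).

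The fitted log2 fold change of Lgals3 was 1.0 (SE 0.168), on TMM-scaled CPM of 405 ± 103 in co-culture and 197 ± 42.8 in controls. It was 0.90 without co-culture library 5 and 1.16 without control library 2, the ends of the range over the 12 libraries left out in turn. Of the 2 galectin genes that passed the filter in C2C12, 1 was called higher and 0 lower (edgeR, adjusted p under 0.05), beside 1.44% of all 2570 genes tested that were called, 0.817% higher and 0.623% lower. The groups did not overlap for 1 of the 2, as for 1.01% of all genes tested in the higher direction. Since this contrast chose the gene, nothing is read from these counts.

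**Figure D1:**
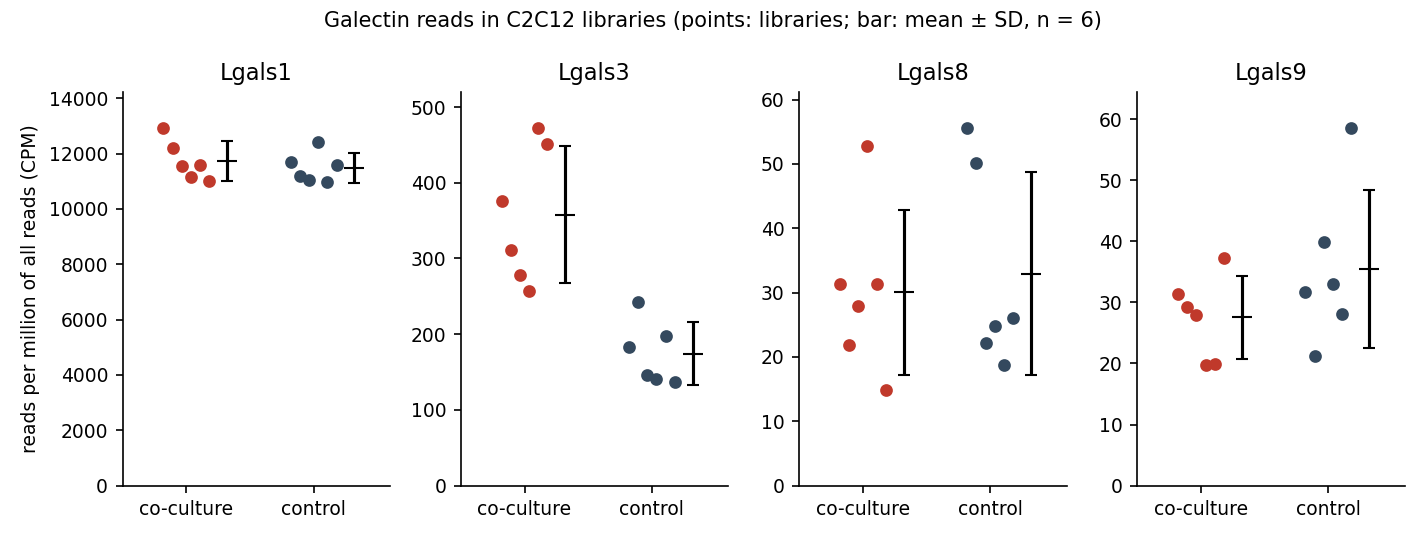
CPM of all reads (vertical axes, each from 0) for Lgals1, Lgals3, Lgals8 and Lgals9 in the 6 co-cultured and 6 control C2C12 libraries, with points for libraries and a bar for the mean ± SD. The Lgals3 points of the co-cultured libraries, 258 to 473 CPM, all lie above those of the controls, 137 to 243 CPM, while the points of the other 3 genes overlap.

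Galectin-3 RNA in C2C12 came from annotated transcripts that share the protein and differ at their ends. Lgals3-201, Lgals3-203 and Lgals3-204 hold the same coding sequence of 795 bases with the stop codon. Before the start codon they have 144, 163 and 95 bases, and after the stop codon 480, 114 and 408 bases, given in the same order. The first exon of Lgals3-204 ends at chr14:47373979, 27 bases beyond the end of the first exon of Lgals3-201 at chr14:47373952. Reads can be told apart between these transcripts only by the parts outside the coding sequence, the end of the first exon included. No source used here names the program that assigned them.

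The shared coding sequence includes the tail that sets galectin-3 apart from the other 3 galectins. The stretch below is shown for its repeats, and the capitals mark 7 copies of codons for alanine, tyrosine, proline and glycine.
Lgals3-204 repeat stretch (chr14:47380149-47380307, plus strand, GENCODE M21 on GRCm38): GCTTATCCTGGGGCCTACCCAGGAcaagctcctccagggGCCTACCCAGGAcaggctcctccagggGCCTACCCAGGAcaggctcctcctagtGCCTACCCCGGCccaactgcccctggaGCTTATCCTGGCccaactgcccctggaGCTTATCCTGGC
It lies in the third exon of the transcript, at chr14:47380053-47380418.

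Lgals3-201 and Lgals3-204 took nearly all Lgals3 reads in both C2C12 groups. Lgals3-201 had 331 reads in co-culture and 154 in controls. Lgals3-204 had 311 reads in co-culture and 125 in controls. Lgals3-203 had 26 reads in co-culture and 14 in controls, and the short Lgals3-202, whose annotated coding sequence has no stop codon, had 0 in co-culture and 3 in controls. The 2 main transcripts were both higher in co-culture. Lgals3-204 ranged over 137 to 213 CPM in co-cultured libraries and 52.1 to 111 CPM in controls, so that its groups did not overlap. Lgals3-201 ranged over 106 to 268 CPM in co-cultured libraries and 39.7 to 141 CPM in controls, and its groups overlapped through control library 2 at 141 CPM.

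The split between the transcripts does not use the gene total that chose Lgals3, and it was tested. The question was whether the balance of transcripts shifted along with the level. Lgals3-201, the transcript with the most reads, took 48.2 ± 5.60% of Lgals3 reads in co-culture and 45.7 ± 12.9% in controls (SD, n = 6 each), with library values of 41.0 to 56.6% and 21.7 to 58.1%. The difference of 2.51 percentage points was smaller than the spread between libraries (exact two-sided permutation test over 924 splits, p = 0.742; the smallest p the design allows is 0.00216). With the reads of each group summed the difference was −2.48 points, and without control library 1, where 5 of 23 Lgals3 reads fell on Lgals3-201, it was −2.29 points. Neither direction of shift was thus detectable at this depth.

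**Figure D2:**
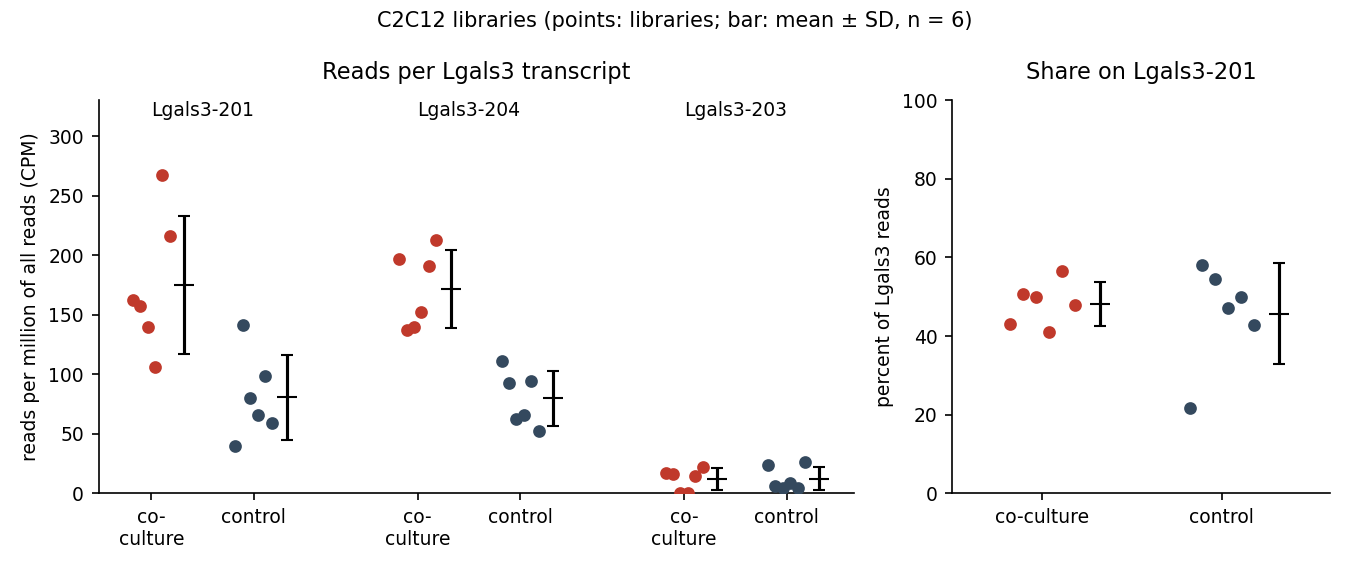
Left, CPM of all reads for Lgals3-201, Lgals3-204 and Lgals3-203 in co-cultured and control C2C12 libraries; right, the percent of each library's Lgals3 reads on Lgals3-201 (points: libraries; bars: mean ± SD, n = 6). The Lgals3-204 points of co-culture lie above those of controls, and the Lgals3-201 shares of the groups overlap, with control library 1 lowest at 21.7%.

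Lgals1 reads fell on 2 annotated transcripts, of which Lgals1-201 encodes galectin-1 and Lgals1-202 is annotated as a target of nonsense-mediated decay, the removal of RNAs with an early stop codon. Lgals1-202 carries an extra exon of 103 bases at chr15:78928565-78928667. Its reading frame enters that exon and meets a stop codon there, which the capitals mark in the spliced sequence across the exon border.
Lgals1-202 (chr15:78928041-78928583, plus strand, spliced, GENCODE M21 on GRCm38): cgccaagagacagggtctccttataTAG
Lgals1-201 had 20880 reads in co-culture and 16382 in controls, and Lgals1-202 had 695 in co-culture and 551 in controls. The Lgals1-202 share was 3.35 ± 0.528% of Lgals1 reads in co-culture and 3.50 ± 1.09% in controls (SD, n = 6 each; exact two-sided permutation test, p = 0.803, chosen after the values were seen). The highest share, 5.45%, was in control library 6, and without that library the difference of co-culture minus control was 0.24 points in place of −0.15. Adjusted over the 2 shares tested (Benjamini-Hochberg), both p-values of these permutation tests were 0.803.

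**Figure D3:**
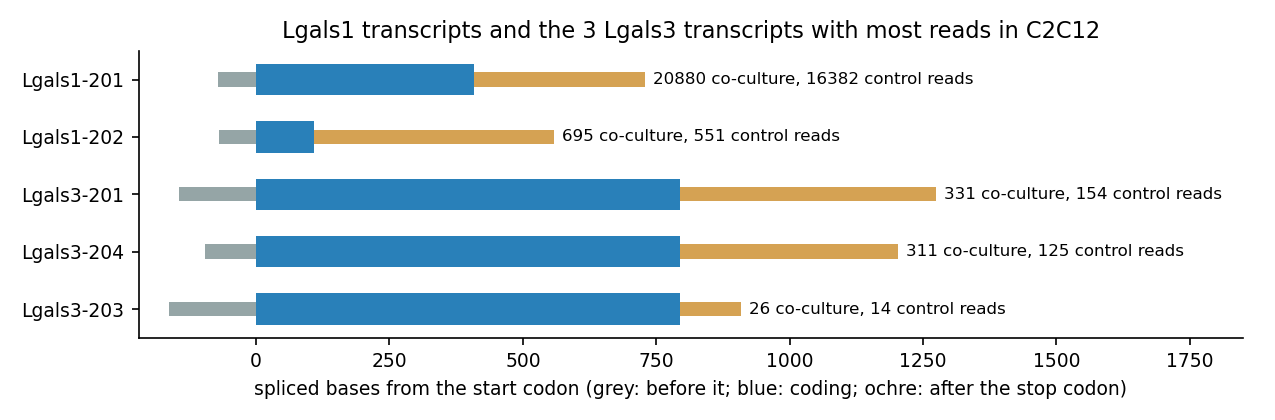
Both Lgals1 transcripts and 3 of the 4 Lgals3 transcripts with reads in C2C12 (Lgals3-202, with 3 reads, is not shown), drawn to scale from the start codon (grey: bases before it; blue: coding; ochre: bases after the stop codon), with read totals beside them. Lgals1-202 stops early after 108 coding bases against 408 in Lgals1-201, and the 3 Lgals3 transcripts shown differ only outside their 795 coding bases.

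Lgals8 encodes galectin-8, which is known to flag damaged endosomes for autophagy (chr13:12439415-12464944, minus strand). Its reads were 11, 12, 4, 8, 11 and 4 in co-cultured C2C12 libraries 1 to 6 and 7, 33, 5, 3, 4 and 4 in controls. The levels averaged 30.04 ± 12.8 CPM in co-culture and 32.9 ± 15.8 CPM in controls (SD, n = 6 each), and the groups overlapped. The pooled ratio of co-culture to control was 0.738 (95% interval of counting 0.493 to 1.1), and 1.01 without control library 2. The end of Lgals8 overlaps Heatr1 on the opposite strand, and no source used here tells whether reads were counted by strand, so its count may hold reads of Heatr1. Lgals8-203 had 35 of the 50 reads in co-culture and 24 of the 56 in controls, and Lgals8-208, a shorter coding transcript, had 0 in co-culture and 8 in controls.

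Lgals9 encodes galectin-9, known as an immune regulator that lymphocytes respond to (chr11:78962974-78984946, minus strand). Its reads were 11, 16, 4, 3, 7 and 10 in co-cultured C2C12 libraries 1 to 6 and 4, 14, 9, 4, 6 and 9 in controls. The levels averaged 27.6 ± 6.79 CPM in co-culture and 35.5 ± 12.9 CPM in controls (SD, n = 6 each), and the groups overlapped. The pooled ratio was 0.916 (interval 0.603 to 1.4). All 51 co-culture reads and 40 of the 46 control reads were on Lgals9-202.

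Lgals3bp, the secreted galectin ligand (chr11:118392751-118402092, minus strand), was near the limit of detection in C2C12. It had 7 reads in co-culture, in 3 of 6 libraries, and 5 in controls, also in 3 of 6. The pooled ratio of 1.16 had an interval of 0.316 to 4.62. Changes of Lgals8, Lgals9 and Lgals3bp of a size that these intervals span were not detectable at this depth.

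Set per kilobase of transcript, the pooled levels spanned about 4 orders of magnitude. Whether reads scale with transcript length in this assay was not tested, so the order below holds for this measure only. In pooled CPM of all reads, Lgals9 and Lgals8 had 28.1 and 27.6 in co-cultured C2C12, and 30.7 and 37.4 in controls. Lgals1 had 15012 CPM per kb in co-cultured C2C12 and 14263 in controls. Lgals3 had 274 CPM per kb in co-culture and 151 in controls. Lgals9 had 18.5 CPM per kb in co-culture and 20.6 in controls, and Lgals8 had 9.84 in co-culture and 17.9 in controls, or 10.4 without control library 2, which held 33 of its 56 control reads. Lgals3bp was lowest, at 1.66 CPM per kb in co-culture and 1.43 in controls. Lgals9 and Lgals8 were the neighbours in this order that did not part beyond their spread, with library means of 18.1 ± 4.47 and 10.7 ± 4.58 CPM per kb in co-culture and 23.9 ± 10.2 and 13.9 ± 8.20 in controls (SD, n = 6 each).

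In NSC34 the only galectin RNA with more than 4 reads was Lgals1. Co-cultured libraries 1 to 6 held 5, 36, 9, 4, 11 and 3 Lgals1 reads, and control libraries 1 to 6 held 0, 5, 5, 2, 9 and 2. The pooled level was 1236 CPM (exact 95% interval 960.1 to 1567) in co-culture and 1450 CPM (919.6 to 2175) in controls. Lgals1 was rank 127 of 7557 genes by reads in this line. The filter left 49 NSC34 genes without it, of which edgeR called 0 (0% of those tested, with 1 gene at an unadjusted p under 0.05), as did DESeq2 and limma-voom. With a filter of 10 reads in total, added after the data were seen, 1109 genes were tested and 7 called (0.631%), and Lgals1 had a log2 fold change of co-culture over control of 0.06 (SE 0.467, edgeR adjusted p = 0.97), where the median of those genes was 0.37.

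The co-culture effect on Lgals1 in NSC34 was set beside that in C2C12, as a description because it uses the C2C12 contrast. The log2 fold change in NSC34 exceeded that in C2C12 by 0.02 (SE 0.357), where the median over the 1091 genes with at least 10 reads in each line was 0.42. By an edgeR interaction 0 of these genes were called (0%). At that filter 126 of these genes had an unadjusted p under 0.05, and of the 49 genes of the stricter filter 0 were called and 4 had such a p.

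The other galectin genes had 6 reads in NSC34 in all. Lgals3 had 0 of 55007 reads in co-culture and 0 of 15858 in controls. At the level of co-cultured C2C12, 20.3 Lgals3 reads would have been counted in co-cultured NSC34. With the limit set at 3 reads over the group, C2C12 stood at least 6.76-fold higher there. The exact counting interval was wider and allowed a ratio of NSC34 to C2C12 of up to 0.182. These values use the co-cultured C2C12 counts by which Lgals3 was chosen, so they are a description with no test. At the control level 3.14 reads would have been counted, so a difference between the control lines was not detectable by these counts. Without co-culture library 2, 9.1 reads would have been counted in the other 5 co-cultured NSC34 libraries, and the limit fell to at least 3.03-fold. Lgals3bp had 4 reads, 3 of them in co-culture library 2 and 1 in control library 2, or 56.4 CPM, against 3.63 CPM in C2C12. That ratio of 15.6, with a counting interval of 3.66 to 51.4, pools both states. Without co-culture library 2, 1 read was left and the ratio was 6.8 (0.159 to 45.97), and in controls alone it was 18.9 (0.399 to 169), so a difference between the lines was not shown. With no filter Lgals3bp was not called between the lines (edgeR adjusted p = 0.193 in co-culture and 0.655 in controls). Lgals8 had 1 read, on Lgals8-208 in co-culture library 3, and Lgals9 had 1, in co-culture library 2.

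**Figure D4:**
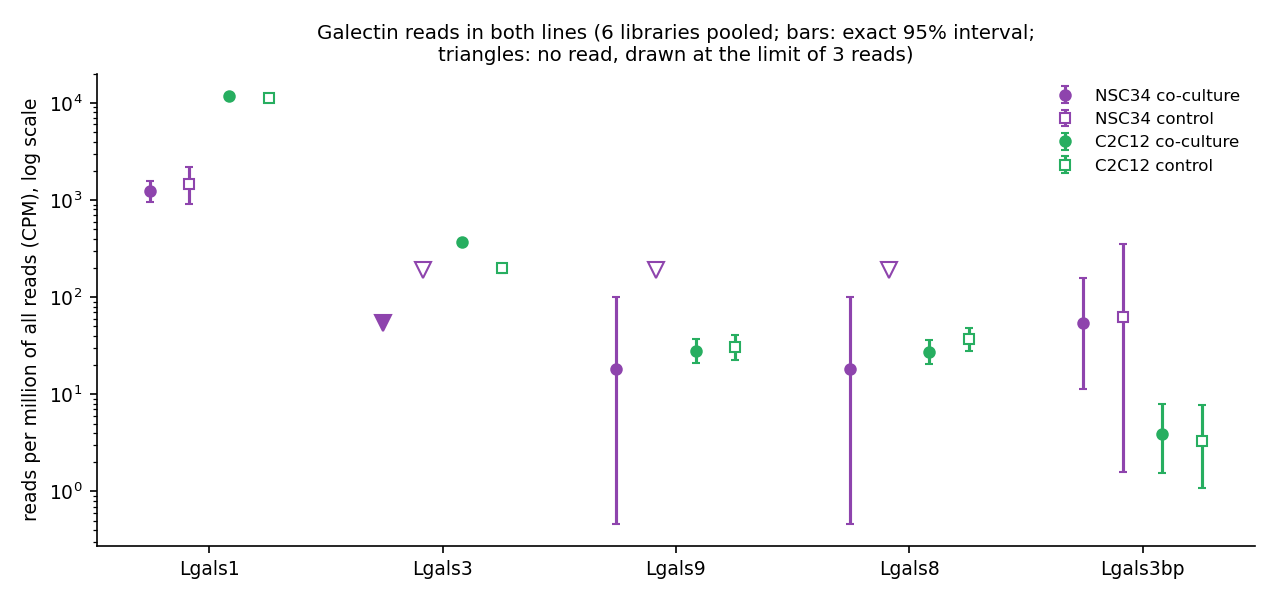
Pooled CPM of all reads (log axis) of the 5 genes in NSC34 co-culture, NSC34 control, C2C12 co-culture and C2C12 control, 6 libraries each, with exact 95% intervals; triangles mark groups with no read, drawn at the limit of 3 reads. Lgals1 sits at 1236 and 1450 CPM in NSC34 against 11904 and 11309 CPM in C2C12, Lgals3 has no NSC34 read, and the intervals of Lgals3bp are wide, with 1 NSC34 control read and 3 in co-culture.

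The line comparison asked how far galectin RNA differed between the motor-neuron-like line and the myoblast line. Lgals1 was lower in NSC34 than in C2C12 in both states. In co-culture the pooled level was 1236 CPM in NSC34 and 11904 CPM in C2C12, so that C2C12 was 9.63-fold higher (counting interval 7.59 to 12.4). In controls it was 1450 CPM in NSC34 and 11309 CPM in C2C12, 7.80-fold higher in C2C12 (5.19 to 12.3). Every NSC34 library lay below every C2C12 library in both states. NSC34 control library 1 held 88 reads and 0 of Lgals1, and 3 reads in it equal 34090 CPM, so its place tells nothing.

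The fitted log2 fold change of Lgals1, NSC34 over C2C12, was −3.36 in co-culture (SE 0.149) and −3.36 in controls (SE 0.255). Both values use C2C12 counts, by which the set was chosen, so they are a description with no test. In controls Lgals1 had reads in 5 of the 6 NSC34 libraries and passed the filter through its C2C12 reads. Under TMM scaling the median log2 fold change of all genes tested was −0.23 in co-culture and −0.77 in controls. Relative to that median Lgals1 stood at −3.13 and −2.59, given in the same order. With library totals alone the log2 fold change itself was −3.13 in co-culture and −2.82 in controls. The median of that run was −0.0036 in co-culture and −0.24 in controls, and relative to it Lgals1 stood at −3.12 and −2.58. Calls were common in this comparison. In co-culture 48.8% of all 1113 genes tested were called, 31.4% lower and 17.3% higher in NSC34, and in controls 33.7% of all 818 genes tested were called, and 30.2% of all 818 were called lower. Groups that did not overlap, lower in NSC34, were found for 24.8% of all genes tested in co-culture and 28.4% in controls. With library totals the calls split into 249 higher and 292 lower in co-culture, against 193 and 350 with TMM, and into 74 higher and 151 lower in controls, against 29 and 247 with TMM.

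Lgals3 is given here by its reads alone. Its line comparison uses the co-cultured C2C12 values by which the gene was chosen, and it passed a filter only through its C2C12 reads, so no test of it is given.

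The proteins that galectins hold on to were followed through lists set up beside the galectin genes. None of the 13 tested of 26 galectin-bound glycoproteins was called in C2C12 co-culture by edgeR, in either direction. By DESeq2 1 was called and by limma-voom 0, and 4 of the 13 had an unadjusted edgeR p under 0.05. The log2 fold change was below 0 in 9 of the 13. The list had a median log2 fold change of −0.16, against 0.00 over all 2570 genes tested. The smallest p-values in it belonged to Fn1, which encodes fibronectin, Itgb1, the beta-1 integrin chain, and Lrp1, a large endocytic receptor. Fn1 averaged 340.4 ± 65.2 CPM in co-culture and 487 ± 100.4 CPM in controls, a log2 difference of −0.53 (SE 0.141, adjusted p of edgeR 0.0524). Its p fell under the threshold by DESeq2 (adjusted p = 0.0247), with library totals (0.0459) and without control library 4 (0.0442) or control library 6 (0.0402). Of the 9 other settings of processing, 6 left the Fn1 result the same. Itgb1 had −0.51 (edgeR adjusted p = 0.108) and Lrp1 −0.51 (0.18), and both stayed above the threshold in every alternative run.

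Few of the enzymes that build galectin ligands were deep enough to test. All 14 genes of N-glycan branching had reads in C2C12, 304 in co-culture and 273 in controls, and 2 passed the filter. B4galt2 and B4galt1, which add the galactose that galectins bind, had log2 fold changes of 0.16 (SE 0.312, edgeR adjusted p = 0.893) and 0.05 (SE 0.231, 0.971). Both changed sign when some libraries were left out, and neither was called.

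Genes of the response to damaged lysosomes, where galectins 3, 8 and 9 gather, were close to the median of all genes. Of 21 listed genes 13 were tested, 0 were called by edgeR, DESeq2 or limma-voom, and the median log2 fold change was 0.04. By edgeR 1 of them, Tax1bp1, had an unadjusted p under 0.05. Tax1bp1, an autophagy receptor, had −0.59 (SE 0.243, edgeR adjusted p = 0.235). Map1lc3b and Gabarap, which encode proteins of the autophagosome membrane, had 0.16 (SE 0.118, 0.607) and 0.11 (SE 0.094, 0.667).

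Interferon-induced genes were listed because interferons are known to raise Lgals9 and Lgals3bp in other cells. Of 18 listed genes 4 were tested and 0 called by edgeR, DESeq2 or limma-voom, with a median of 0.17, all 4 above 0 and 1 of them, Ifi27, at an unadjusted edgeR p under 0.05. Ifi27 stood at 0.41 (SE 0.178, edgeR adjusted p = 0.271), B2m, the light chain of class I histocompatibility molecules, had 0.15 (SE 0.0909, 0.497), and H2-D1, a class I heavy chain, had 0.18 (SE 0.156, 0.722).

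**Figure D5:**
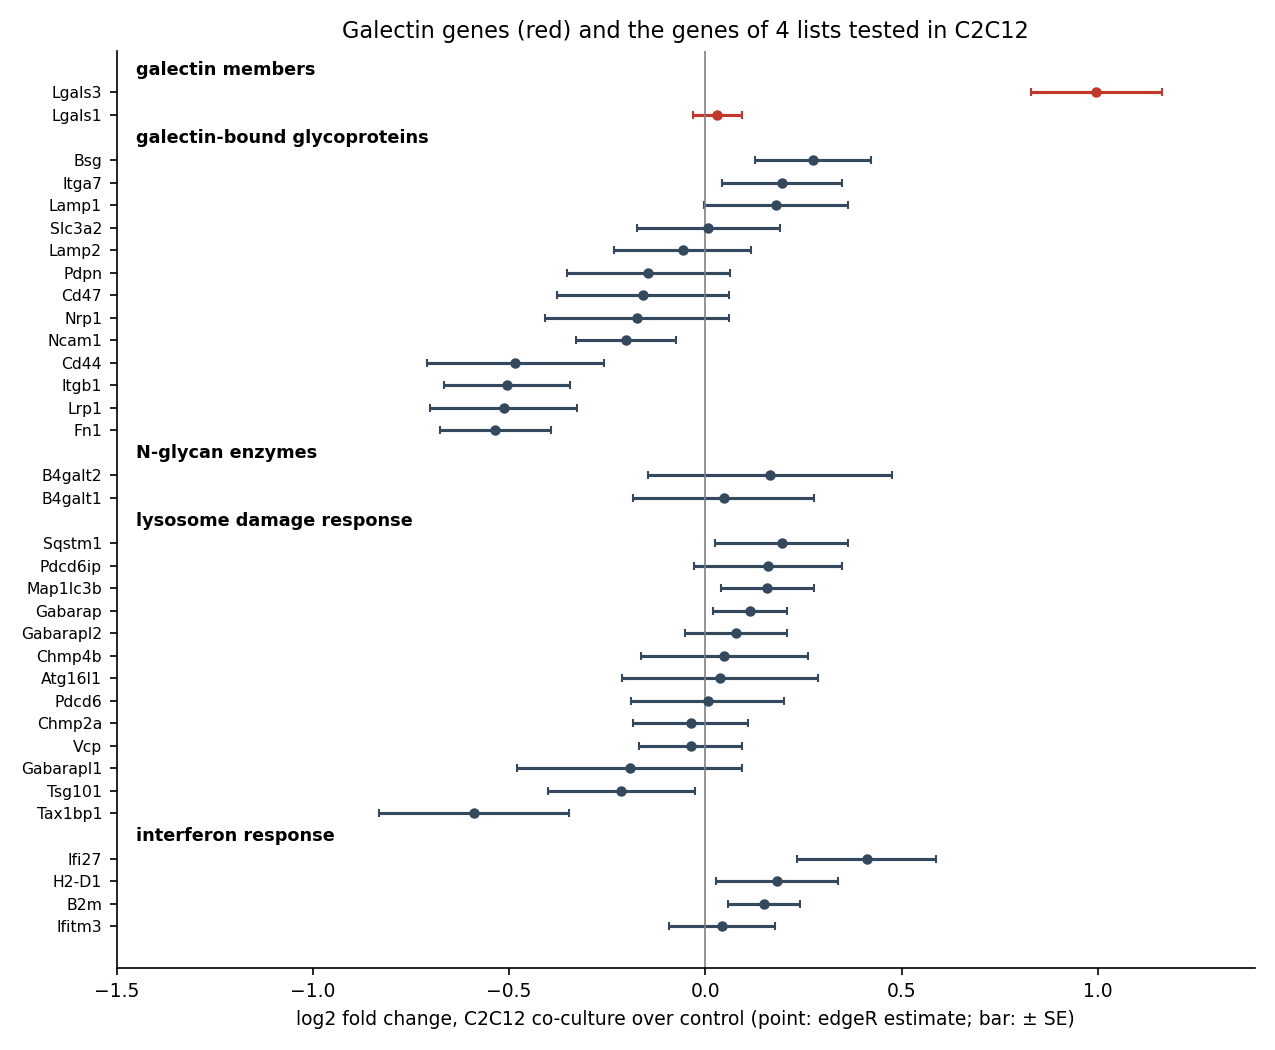
Log2 fold change of co-culture over control in C2C12 (point: edgeR estimate; bar: ± SE) for the 2 galectin genes tested, in red, and the tested genes of 4 lists. Lgals3 lies at 1.0 and Lgals1 at 0.03, Fn1, Itgb1 and Lrp1 lie near −0.5, and no gene of the 4 lists passed the threshold.

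Markers of other cells were read beside Lgals3, since galectin-3 is abundant in macrophages. The 12 macrophage markers had 22 reads in co-cultured C2C12 and 28 in C2C12 controls, or 12.1 and 18.7 CPM, and ranged over 2.85 to 19.9 CPM in co-cultured libraries and 6.51 to 37.5 CPM in controls. Of these 50 reads 41 were on Cx3cr1, and the rest were on Cd68, Csf1r, Cd14 and Fcer1g. The other markers of the list, Adgre1, Ptprc, Itgam, Lyz2, Tyrobp, Ctss and Aif1, were at 0 in every library of both lines. Of the 5 fibroblast markers 3 were tested and 0 called by edgeR, DESeq2 or limma-voom, with 1 at an unadjusted edgeR p under 0.05. Col3a1, a chain of type III collagen, lay lower in all co-cultured libraries than in any control, at 1155 ± 93.5 CPM in co-culture and 1362 ± 108 CPM in controls (log2 fold change −0.25, SE 0.0795, edgeR adjusted p = 0.108), as did 0.506% of all genes tested. Dcn had 0.20 and Pdgfrb −0.08, neither of them called.

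Most markers of muscle differentiation were not called. Of 12 myoblast markers 10 were tested, 1 was called higher and 0 lower by edgeR, beside 0.817% of all genes tested that were called higher. The median log2 fold change was 0.16, with 6 markers above 0 and 4 below. By DESeq2 2 were called and by limma-voom 0. The called gene was Myog, a factor that drives myoblasts into fusion, with 3589 ± 558 CPM in co-culture and 2657 ± 381 CPM in controls (log2 fold change 0.43, SE 0.106, edgeR adjusted p = 0.0457). Its call was lost by limma-voom (0.0576), once the length trend was removed (0.0664), and without 8 of the 12 libraries taken in turn, with adjusted p-values over all 12 of 0.0244 to 0.106. Ttn, which encodes titin, and Myh3, an embryonic myosin heavy chain, lay on the other side at −0.64 (SE 0.201, edgeR adjusted p = 0.104) and −0.37 (SE 0.195, 0.394), and were named after their values were seen. Of the motor neuron markers Tubb3 had −0.27 and Stmn2 −0.13, and neither was called. The part of these genes in the Lgals3 values was not tested, and in bulk RNA more cells of a kind and more RNA per cell cannot be told apart.

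Over all 1113 genes tested between the co-cultured lines, 31.4% were called lower in NSC34 and 17.3% higher. Of the glycoproteins of the list 5 were tested there, and edgeR called 3 of them lower in NSC34 and 0 higher. The NSC34 counts of these called genes were small, and they passed the filter through their C2C12 reads, which favours calls in this direction. Their levels are thus set side by side as pooled CPM with a counting interval of the ratio. Fn1 had 1 read, or 18.2 CPM, in co-cultured NSC34 and 296 CPM in co-cultured C2C12, a ratio of 0.0614 (0.00155 to 0.343; edgeR adjusted p = 0.000122). Ncam1, a neural cell adhesion molecule, had 3 reads, or 54.5 CPM, in co-cultured NSC34 and 246 CPM in C2C12, a ratio of 0.222 (0.0455 to 0.652; 0.00191). Lamp1, a heavily glycosylated lysosomal protein, had 4 reads, or 72.7 CPM, in co-cultured NSC34 and 200.3 CPM in C2C12, a ratio of 0.363 (0.0984 to 0.938). Its edgeR adjusted p of 0.0214 became 0.0578 with library totals and 0.0786 by limma-voom, and 6 of the 9 other settings left the Lamp1 result the same. In controls 4 were tested and 2 called lower, beside 30.2% of all 818 genes tested. These were Fn1 on 2 NSC34 reads (edgeR adjusted p = 0.0467) and Ncam1 on 1 (0.0449). Both counting intervals of these control ratios reached past 1. Both calls were lost with library totals (0.181 and 0.176), RLE factors, DESeq2 and limma-voom. The Ncam1 call was also lost without NSC34 control library 5 (0.0535), and 4 of the 9 other settings left its result the same.

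Of the lysosomal damage genes, 6 were tested in co-culture, with 2 called lower in NSC34 and 1 higher. Of all 1113 genes tested there 31.4% were called lower and 17.3% higher, so nothing is read from these counts. Gabarap had 10 reads, or 182 CPM, in co-cultured NSC34 and 636 CPM in C2C12, a ratio of 0.286 (counting interval 0.137 to 0.527; edgeR adjusted p = 5.94e-05). Vcp, an ATPase of protein turnover, had 11 reads, or 199.98 CPM, in co-cultured NSC34 and 408 CPM in C2C12, a ratio of 0.490 (0.244 to 0.883; 0.022), and its call was lost with library totals (0.0752) and without C2C12 co-culture library 5 (0.0524). Gabarapl2, a relative of Gabarap, had 20 reads, or 364 CPM, in co-cultured NSC34 and 169.9 CPM in C2C12, a ratio of 2.14 (1.29 to 3.36; 0.0223). The Gabarapl2 call was lost when any of the 6 co-cultured NSC34 libraries was left out (0.101 to 0.651), and its fitted direction turned with a looser filter. In controls 5 were tested and Gabarap was called lower, beside 30.2% of all 818 genes tested. Its call rested on 3 NSC34 reads (edgeR adjusted p = 0.0111) and was lost with library totals (0.0799) and by DESeq2 (0.0814).

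The interferon-induced B2m was lower in NSC34 in co-culture, at −1.30 (SE 0.308, edgeR adjusted p = 0.000825), and in controls, at −1.92 (0.00586, and 0.0595 with library totals and 0.0558 by DESeq2). The other 3 interferon genes tested in co-culture, and the other 1 in controls, were not called. Over all genes tested, 31.4% were called lower in NSC34 in co-culture and 30.2% in controls. All 9 myoblast markers tested were lower in NSC34 in co-culture and in controls, and Col3a1 was lower in both. These genes passed the filter through their C2C12 reads, which favours calls in this direction, so nothing is read from these calls. Prph, a neuronal intermediate filament, was higher in co-cultured NSC34, the only motor neuron marker tested there. It passed the filter through its NSC34 reads, so the same limit holds for it.

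The C2C12 genes whose course over the 12 libraries was most like that of Lgals3 were found by the root mean square difference of log2 CPM, each gene centred on its mean. This measure uses the same libraries and contrast that chose Lgals3 and is a description. The nearest was Igfbp6, a binding protein of insulin-like growth factors, at 0.253, followed by Mb, the oxygen-binding myoglobin, at 0.310. Nans, a sialic acid synthase, stood at 0.315, Hspb11 at 0.353 and Bri3 at 0.357. The median over the 2569 other genes tested was 0.657, and Lgals1 stood at 0.586. Mb was called higher in co-culture, with 1245 ± 82.7 CPM in co-culture and 749 ± 63.0 CPM in controls (log2 fold change 0.73, edgeR adjusted p = 3.41e-05). The other 4 were not called, with log2 fold changes of 0.70 for Igfbp6 (0.108), 0.63 for Nans (0.129), 0.44 for Hspb11 (0.232) and 0.71 for Bri3 (0.186). Igfbp6 fell under the threshold without control library 2, at a log2 fold change of 1.11 (0.0113), and with no filter (0.0256).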

How the data were processed

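The authors deposited unscaled read counts for Ensembl transcripts, 1 table for each line. The genome build is GRCm38, per the submitters' processing notes, and no source used here names the aligner, the counting program or its strand setting. All columns matched a library by name. Transcripts were named from GENCODE M21 without their version (37415 of 37677 in C2C12, 10374 of 10427 in NSC34; the others held 0.224% and 0.238% of reads) and summed per gene. Deposited versions were mostly 1 higher than in M21 (37048 and 10267 transcripts), so positions and sequences are those of M21.

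Comparisons used edgeR 4.0.16 in R 4.3.3 (filterByExpr by group, TMM, quasi-likelihood F test), with Benjamini-Hochberg adjustment over all genes tested and a threshold of 0.05. Levels are CPM of all reads or, for tested genes beside a fold change, TMM-scaled CPM. Shares were compared by exact permutation of libraries, in Python 3.11.15. The alternatives were DESeq2 1.42.0, limma-voom 3.58.1, scaling by RLE factors or by library totals, other filters, libraries under 1000 reads left out, a replicate block and each library left out. Added after seeing the data were the filter of 10 reads in total, removal of a length trend (loess, span 0.5), Lgals1 left out of the scaling, pooled levels without a library, and the Lgals1-202 share. The edgeR script was tested on simulated data.

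The genes and the lists beside them were chosen with earlier results of these data known. All 5 genes are named whatever their result; of each list, those called or else up to 3 with the smallest p; and the 5 genes nearest to Lgals3. Lgals6, listed among other galectins, has no entry in the annotation. Of the library pairs deep enough to compare (all but 3 pairs of NSC34 controls), none differed by less than sampling noise, and all 24 libraries were counted.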

Additional observations from a re-analysis of the deposited data

Results flagged for a closer look

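Lgals1 in co-cultured NSC34 had a library far from the others. Co-culture library 3 stood at 1798 CPM on 9 reads, and the gap to the next library was 0.647 of the range of the 6, above Dixon's 95% critical value for 6 samples. This was 1 of 28 such checks, and chance flags about 1 in 20 groups. Without this library the log2 fold change of Lgals1 in NSC34, with at least 10 reads in total, was −0.015 in place of 0.06.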

How the results depend on the processing

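Lgals3 in C2C12 co-culture, the contrast that chose it, had a log2 fold change of 0.95 to 1.08 in the 9 other settings. Without each of the 12 libraries it was 0.90 to 1.16. Its groups did not overlap, so leaving out 1 library could not be expected to turn its direction, and these ranges are a description. Lgals1 between the lines stayed lower in NSC34 in every setting, at −5.07 to −2.82 in controls and −4.69 to −3.13 in co-culture. Counts of called genes moved more. In C2C12 co-culture the 37 calls became 58 with library totals (23 higher, 35 lower), 67 by DESeq2 and 106 with no filter, and 11 to 74 with libraries left out: 11, 18, 74 and 73 without control library 3, 1, 5 or 6, and 12, 19, 22 and 24 without co-culture library 2, 5, 1 or 3. In NSC34 the 0 calls became 7 with at least 10 reads in total, and 0 to 1 with libraries left out. The 276 calls between control lines became 1499 with no filter, 554 at a mean count of at least 10, 490 without libraries under 1000 reads and 1334 with at least 10 reads in total, and 47 to 513 with libraries left out. The 189 calls by DESeq2 there split 49 higher and 140 lower, against 29 and 247 by edgeR. The 543 calls between co-cultured lines became 2121 with no filter and 1974 with at least 10 reads in total, and 324 to 805 with libraries left out. Between the lines the filter itself moved with the library left out, since 91 to 92 genes were tested without any C2C12 control and 1462 to 1525 without any NSC34 control, and 543 to 549 and 1760 to 1810 in co-culture. Other causes of these moves were not tested.

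The Lgals3-201 share difference was −2.48 points with reads summed, −2.29 to 4.99 with libraries left out, and 2.51 with the replicate block (exact permutation within numbers, p = 0.688). The Lgals1-202 difference ran from −0.32 to 0.24. Lgals1 with at least 10 reads in total ran from −0.048 to 0.36 in NSC34 and from −0.070 to 0.35 for the interaction. B4galt2 ran from −0.13 to 0.32, B4galt1 from −0.070 to 0.18, and Pdgfrb from −0.21 to 0.065 with libraries left out, Pdgfrb being 0.011 with no filter and 0.080 without the length trend. Gabarapl2 between co-cultured lines was −0.35 with no filter and −0.27 with at least 10 reads in total.

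Same-numbered C2C12 libraries correlated at −0.054 to 0.105, and 2 of the 6 co-cultured libraries correlated best with their own number. The highest correlation, 0.34, was between co-culture library 1 and control library 2. Whether same-numbered libraries were cultured or processed together cannot be told from these values. The replicate block gave 26 calls in C2C12, 0 in NSC34, 241 and 492 between control and co-cultured lines, and 0.97 for Lgals3. Depth in NSC34 limits every galectin gene, Lgals1 included.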

Other observations

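The remaining galectins of the mouse were nearly unread. In C2C12 Lgals4 had 5 reads in co-culture and 1 in controls, Lgals12 had 1 in co-culture and Lgals2 had 1 in controls. In NSC34 Lgalsl, a galectin-related gene, had 3 reads, 1 in each of 3 co-cultured libraries, and no read among the 3309635 of C2C12. Lgals7 and Grifin had no read in either line. The 6 glial markers had 8 reads in co-cultured C2C12, 9 in C2C12 controls and 1 in NSC34.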
